A study of Homo sapiens with 6 samples.

Results

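The genes described here form the core of the plasminogen activation system that the count table of this series holds: PLAU, PLAT, PLAUR and SERPINE2, 4 of 21961 gene symbols, chosen by name as plasminogen activators, receptor and inhibitor. Their mRNA was measured in 6 RNA-seq libraries of HaCaT, a line of spontaneously immortalised human keratinocytes, of 2 groups titled mod and Nvs, with 3 libraries each. According to the series text, keratinocytes irradiated with UVB were compared with irradiated keratinocytes that had also received BVNV, vesicles from Beta vulgaris (beet). The sample labels match this in part: the mod libraries are labelled UV-induced, while the Nvs libraries carry the label control and name no vesicles, so the groups keep their titles here. No dose, time or culture of origin is given, and the spread between libraries that the p-values measure may be technical only.

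Plasminogen activators are serine proteases that cleave the circulating zymogen plasminogen to plasmin, a broad protease that dissolves fibrin and degrades matrix proteins. Urokinase, encoded by PLAU, acts mainly at the cell surface, where it binds a GPI-anchored receptor encoded by PLAUR, whereas tissue-type activator, encoded by PLAT, acts chiefly on fibrin. Serpins, among them the product of SERPINE2 (protease nexin-1), trap these proteases covalently, and the trapped complexes are taken up by receptors of the LDL receptor family. In epidermis, urokinase and its receptor are known for their induction in keratinocytes that migrate into wounds.

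Total counts per library were between 41120058 and 51369628. Transcripts of the mitochondrial genome took 29.8% to 31.4% of counts in mod and 51.8% to 53.3% in Nvs, which leaves a smaller share of counts for the nuclear genes of Nvs as a whole. Levels were therefore scaled with TMM, which sets the typical gene near 0, and "rose" and "fell" below are relative to that gene. Scaled by library total instead, the median tested gene stood at -0.77 (log2 Nvs minus mod), and values by that scaling are given wherever they turn a direction. How much of that shift goes with the mitochondrial share was not tested. The 7 keratinocyte markers were all detected, with a summed level of 6923 to 7617 FPKM in mod and 5577 to 5996 FPKM in Nvs. The summed levels of fibroblast, melanocyte and leukocyte or endothelial markers were at most 1.76, 1.33 and 0.162 FPKM in any library. In bulk RNA, fewer cells that express a gene and less RNA per cell cannot be told apart.

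Relative to the typical gene, both activators and the urokinase receptor rose in Nvs, and the inhibitor SERPINE2 fell. The edgeR quasi-likelihood test with Benjamini-Hochberg adjustment over all 14617 tested genes called 3 of the 4 members, all of which passed the filter on low counts, higher and 1 lower. Of all tested genes 43.3% were called, 22.8% higher and 20.5% lower, so a call by itself does not set these genes apart. The CPM ranges of mod and Nvs did not overlap for any of the 4, nor for 53.6% of the tested genes.

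**Figure D1:**
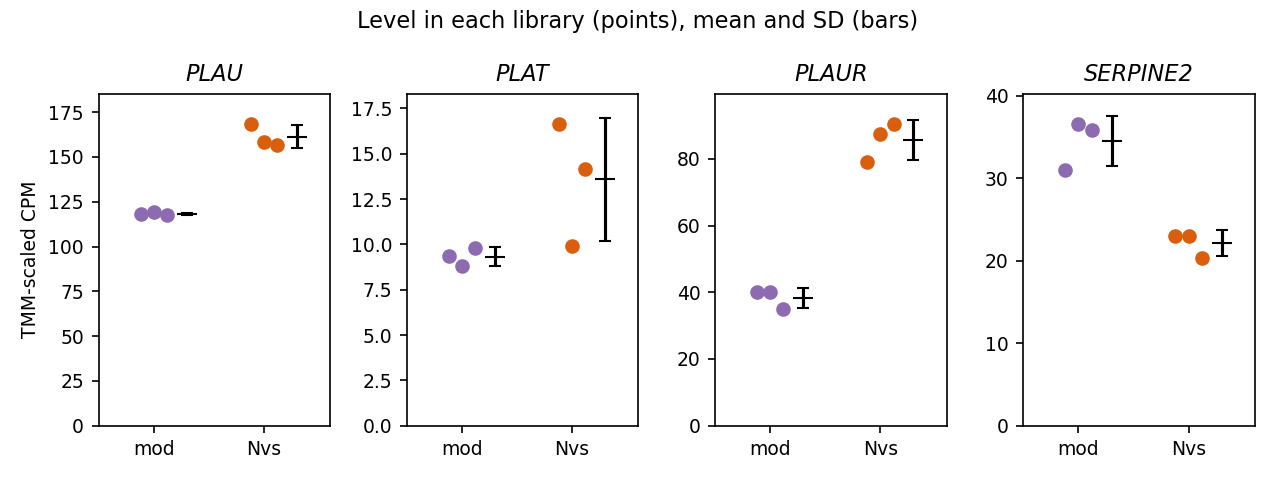
TMM-scaled CPM (vertical axes, each from 0) in every library of mod and Nvs for the 4 members, with the mean and SD over 3 libraries as bars. PLAU, PLAT and PLAUR lie higher in Nvs, SERPINE2 lower, and a single PLAT library of Nvs lies near the mod libraries at 9.92 CPM.

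PLAU (ENSG00000122861), which encodes urokinase, lies on the plus strand of chromosome 10, 73909177 to 73917497 in GENCODE release 29 on GRCh38. It had 7854, 7766 and 6905 counts in mod replicates 1 to 3 and 5746, 5011 and 5229 in Nvs. As TMM-scaled CPM, counts over a library size adjusted so that the typical gene is level between libraries, these were 118, 119 and 118 in mod and 169, 158 and 157 in Nvs, so the mod libraries were nearly identical and all 3 Nvs libraries stood above them. The log2 fold change was 0.45 ± 0.05 (SE, n = 3 per group, edgeR adjusted p = 1.10e-05), a fold of 1.36. By library total PLAU was lower in Nvs, at -0.31 (edgeR adjusted p = 9.98e-05), which is less of a fall than that of the median gene; by that scaling 68.0% of the tested genes were called lower and 4.03% higher.

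Gene length touches this value, because short genes lay higher in Nvs. PLAU spans 8663 bp in RefSeq, and the 1051 tested protein-coding genes of similar span (within 0.1 log10 units) had a median log2 fold change of 0.22. With the trend on span removed from each library, PLAU stood at 0.22 ± 0.05 (limma adjusted p = 0.00749). A gene on the opposite strand, C10orf55, overlaps PLAU. It held 7 to 30 counts per library, so reads assigned to it are few beside those of PLAU.

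PLAT (ENSG00000104368), which encodes tissue-type plasminogen activator, lies on the minus strand of chromosome 8, 42175233 to 42207724. It had 624, 574 and 575 counts in mod and 568, 314 and 473 in Nvs, or 9.37, 8.80 and 9.81 CPM against 16.7, 9.92 and 14.2. The Nvs libraries were spread widely, and the second of them was barely above the highest mod library. The log2 fold change was 0.54 ± 0.16 (SE, n = 3 per group, edgeR adjusted p = 0.0164), and it was -0.21 by library total (edgeR adjusted p = 0.262). Single libraries decided the call: the adjusted p was 0.0508 without mod replicate 1, 0.0683 without mod replicate 2 and 0.0936 without Nvs replicate 1, whereas without Nvs replicate 2 the log2 fold change was 0.73 with an adjusted p of 0.000612.

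PLAUR (ENSG00000011422), which encodes the urokinase receptor, lies on the minus strand of chromosome 19, 43646095 to 43670547. Its counts were 2662, 2620 and 2048 in mod and 2692, 2773 and 3024 in Nvs, about as many or more in Nvs although the counts left for nuclear genes were fewer there. In CPM, mod had 40.0, 40.1 and 34.9 and Nvs 79.0, 87.6 and 90.6. Every Nvs library thus stood far above every mod library, with a log2 fold change of 1.16 ± 0.07 (SE, n = 3 per group, edgeR adjusted p = 4.62e-08), a fold of 2.23. PLAUR was the member whose rise did not depend on the scaling: by library total it was still higher, at 0.40 ± 0.08 (edgeR adjusted p = 0.000358), a call in that direction that 4.03% of the tested genes shared. Its span of 24075 bp is shared by genes with a median log2 fold change of 0.04, and removal of the span trend left it at 1.12.

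The promoter of PLAUR holds the letters of a site for AP-1, the dimer of JUN and FOS family proteins. The match is shown because mRNAs of AP-1 subunits differ between the same libraries, as described further on. Whether it bears on the level of PLAUR mRNA was not tested. PLAU, PLAUR and SERPINE2 were found in a RefSeq promoter table (GRCh38.p14), with 2, 1 and 2 listed starts, and the 250 bases before each start were searched on both strands for the letters TGANTCA (AP-1), GGGCGG (Sp1) and TATAAA. PLAUR had 1 AP-1 match, beginning 186 bases before its start, in capitals within this stretch of chr19:43670339-43670365 on the minus strand:
PLAUR: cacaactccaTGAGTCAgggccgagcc
The heptamer lies within the 5′ untranslated region of 1 of the 16 PLAUR transcripts of GENCODE release 29, which starts further upstream. The AP-1 letters occur in 6.57% of the 35116 promoters of that length. They were not found before any listed start of PLAU or SERPINE2. PLAT had no listed start and was not searched. The Sp1 letters, which 42.6% of promoters hold, matched 3 times before the second listed start of PLAU and not before the first, and 1 and 2 times before the starts of SERPINE2. No TATAAA was found in these windows. A match of letters is a description of the sequence, and binding was not measured.

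SERPINE2 (ENSG00000135919), which encodes protease nexin-1, an inhibitor of urokinase, tissue-type activator and thrombin, lies on the minus strand of chromosome 2, 223975112 to 224039319. It had 2066, 2390 and 2100 counts in mod and 784, 729 and 678 in Nvs. In CPM, mod had 31.0, 36.6 and 35.8 and Nvs 23.0, 23.0 and 20.3, with no overlap between the groups. It fell by a log2 fold change of -0.64 ± 0.09 (SE, n = 3 per group, edgeR adjusted p = 9.29e-05), and by library total the value was -1.40. Genes of similar span to its 64242 bp had a median of -0.15, and the value was -0.51 ± 0.09 after removal of the span trend (limma adjusted p = 0.00227).

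**Figure D2:**
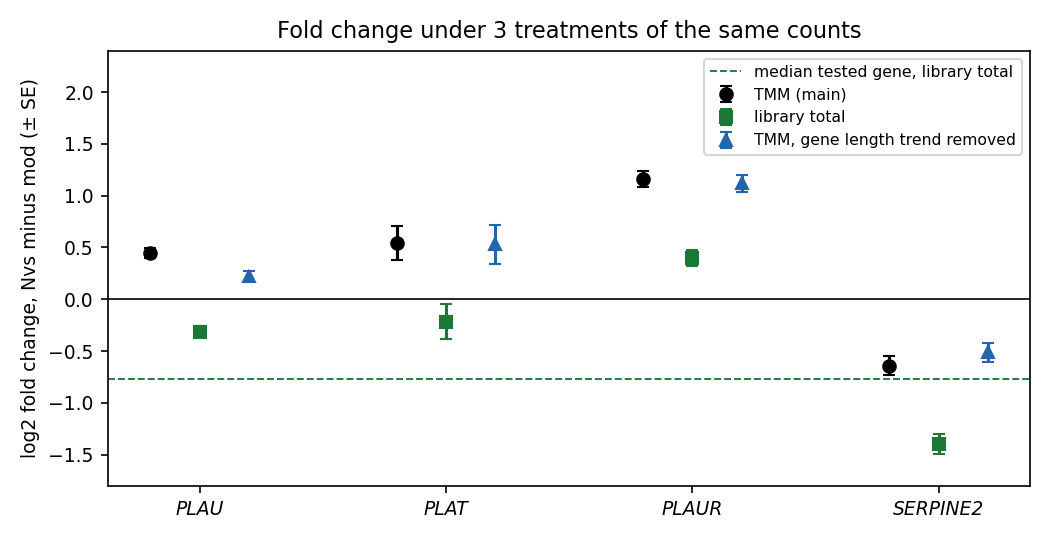
Log2 fold change of Nvs minus mod with its SE for the 4 members, under TMM, under scaling by library total and with the gene length trend removed; the dashed line is the median tested gene by library total, at -0.77. PLAUR is above 0 and SERPINE2 is below 0 in all 3, while PLAU and PLAT are above 0 except by library total, where they lie between 0 and the dashed line.

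Of the other inhibitor genes on the lists, SERPINB2, which encodes plasminogen activator inhibitor 2, was not called (24.6 ± 2.78 CPM in mod, 28.5 ± 1.19 in Nvs, log2 fold change 0.21 ± 0.10 SE, edgeR adjusted p = 0.0940), and by library total it stood at -0.55. Without mod replicate 2 it was called, at 0.29 (edgeR adjusted p = 0.0407).

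Levels of different genes were compared per length, as the authors' FPKM values, which scale by library total. The lengths behind them, recovered as count over FPKM, were 2961 bp for PLAU, 4475 bp for PLAUR, 7802 bp for PLAT and 8994 bp for SERPINE2, and the order of levels depends on these lengths. In both groups the order was PLAU, PLAUR, SERPINE2, PLAT, and no neighbours in it overlapped. PLAU was at 51.9 ± 1.01 FPKM in mod and 41.8 ± 1.94 in Nvs (SD, n = 3), in the top of the tested genes by mean FPKM (percentile 96.5). PLAUR had 11.1 ± 0.980 and 14.7 ± 0.942 FPKM (percentile 84.8). SERPINE2 had 4.99 ± 0.465 and 1.89 ± 0.147 FPKM (percentile 58.8). PLAT, the scarcest of the 4, had 1.55 ± 0.0634 and 1.34 ± 0.339 FPKM (percentile 39.7), and the lowest SERPINE2 library of Nvs, at 1.72, was just above the highest PLAT library there, at 1.65.

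A ratio between genes within 1 library does not change with the scaling of libraries. The shift between receptor, activator and inhibitor mRNAs was therefore read from ratios. Such a ratio is not free of the trend on gene length, and no ratio was recomputed with that trend removed. Without the trend the members stood at 1.12 (PLAUR), 0.22 (PLAU), 0.53 (PLAT) and -0.51 (SERPINE2). Under TMM they were at 1.16, 0.45, 0.54 and -0.64, so PLAU and SERPINE2 lay further apart there. There are 6 pairs among the 4 members. With 3 against 3 libraries the exact two-sided permutation test cannot go below p = 0.1, and every pair but PLAU to PLAT reached that value (0.12 after Benjamini-Hochberg adjustment over the 6 pairs).

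PLAUR mRNA stood higher against PLAU mRNA in Nvs. The FPKM ratio of PLAUR to PLAU was 0.224, 0.223 and 0.196 in mod and 0.310, 0.366 and 0.383 in Nvs, which do not overlap, a log2 difference of 0.71 ± 0.11 (SE, n = 3 per group) or 1.64-fold. The ratio of the 2 activators differed by less than the spread between libraries. PLAU stood at 33.2, 35.6 and 31.6 times the FPKM of PLAT in mod and at 26.7, 42.0 and 29.1 times in Nvs, which overlap, with a log2 difference of -0.07 ± 0.21 (SE, exact permutation p = 0.8).

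Both activators stood higher against the inhibitor SERPINE2 in Nvs. PLAU had 11.5, 9.87 and 9.99 times the FPKM of SERPINE2 in mod and 22.3, 20.9 and 23.4 times in Nvs, a log2 difference of 1.09 ± 0.09 (SE), and no library of one group came near the other. The ratio of PLAT to SERPINE2 was 0.348, 0.277 and 0.316 in mod and 0.835, 0.497 and 0.804 in Nvs. PLAT thus stayed below SERPINE2 in every library but came closer to it in Nvs, with a log2 difference of 1.15 ± 0.26 (SE) and no overlap.

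The ratio of receptor to inhibitor differed most among the 6 pairs. The ratio of PLAUR to SERPINE2 went from 2.59, 2.20 and 1.96 in mod to 6.90, 7.64 and 8.96 in Nvs, which is 3.48-fold, a log2 difference of 1.80 ± 0.16 (SE). PLAUR also stood higher against PLAT, by 0.65 ± 0.28 on the log2 scale, though the nearest libraries were close at 7.96 and 8.26.

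**Figure D3:**
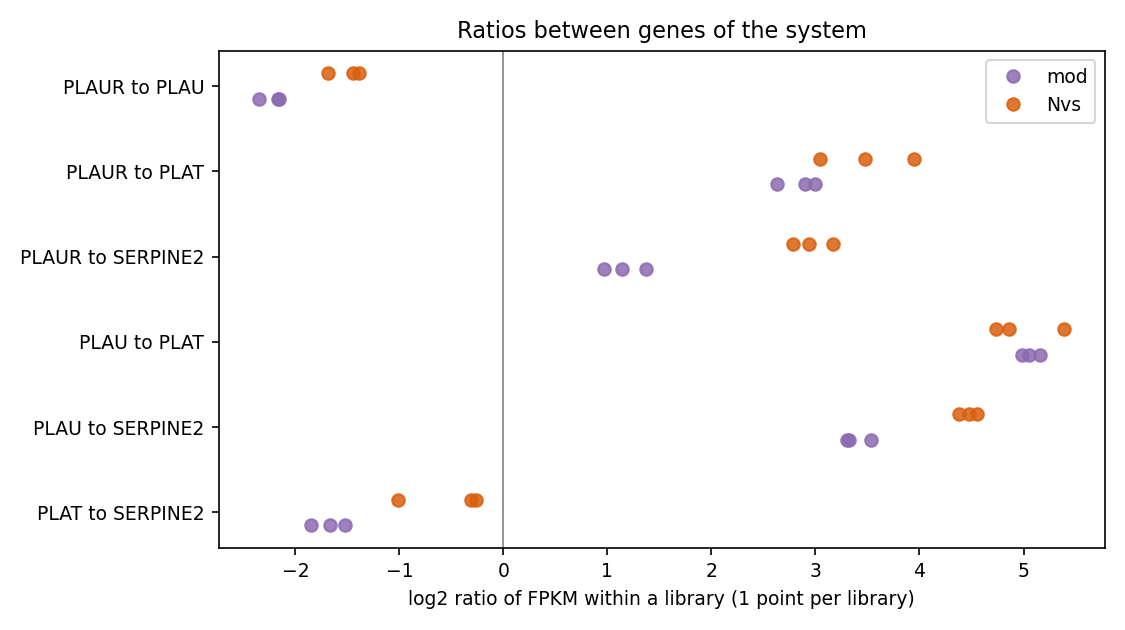
Log2 ratio of FPKM between pairs of genes (horizontal axis), 1 point per library, for mod and Nvs. PLAUR to SERPINE2 is displaced furthest to the right in Nvs, by 1.80, and the PLAU to PLAT points of the groups overlap.

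The surroundings of these genes were taken from 8 lists with 65 genes, of which 50 were tested. Of these, 15 were called higher and 19 lower. Over all tested genes 22.8% were called higher and 20.5% lower, and the counts of each list below stand against the same shares. The median log2 fold change on the lists was -0.06 against -0.01 over all tested genes. By library total the split was 6 higher and 38 lower, where 4.03% of all tested genes were called higher and 68% lower. The median by that scaling was -0.82 against -0.77 over all tested genes. The lists were chosen by role and with earlier results of these data known.

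Plasmin is formed from plasminogen, whose gene PLG had no row in the counts used here and was not analysed. Of the 4 tested surface receptors for plasminogen 1 rose: S100A10, which binds plasminogen as a subunit of the annexin A2 tetramer, went from 410 ± 8.72 to 559 ± 33.9 CPM (log2 fold change 0.45 ± 0.05 SE, edgeR adjusted p = 1.96e-05), a direction that turned to -0.31 by library total; with the span trend removed it was at 0.24. Its partner ANXA2 was at 1049 ± 38.2 and 972 ± 52.3 CPM and not called (edgeR adjusted p = 0.120, and 0.0427 without Nvs replicate 3). ENO1, the glycolytic enolase that also binds plasminogen at the surface, had 1612 ± 63.8 and 1584 ± 51.4 CPM and was not called either (edgeR adjusted p = 0.728), but with the span trend removed it was, at -0.14 (limma adjusted p = 0.0468).

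Of 4 tested proteases that can convert pro-urokinase to its active form, 2 fell and 1 rose. ST14, which encodes the epithelial membrane protease matriptase, fell from 109 ± 2.07 to 68.4 ± 3.16 CPM (log2 fold change -0.67 ± 0.06 SE, edgeR adjusted p = 5.54e-07), and with the span trend removed it was at -0.59. CTSB, cathepsin B, fell from 347 ± 27.8 to 268 ± 4.59 CPM. F12, coagulation factor XII, rose from 14.1 ± 0.758 to 21.6 ± 2.38 CPM, although by library total it was at -0.14, and with the span trend removed at 0.38.

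Genes on the list of clearance receptors, which take up serpin-bound activators or, in the case of MRC2, collagen, were mostly lower. Of the 5 tested 4 fell, with a median of -0.64. The 1 not called was LRPAP1 (-0.09, edgeR adjusted p = 0.312), which encodes a protein that binds these receptors and is not itself one. LRP1, which internalises urokinase bound to its receptor and inhibitor, fell from 191 ± 16.5 to 145 ± 9.43 CPM (-0.40 ± 0.07 SE, edgeR adjusted p = 0.000370). MRC2, a collagen uptake receptor that associates with the urokinase receptor, fell from 94.4 ± 3.69 to 57.8 ± 1.58 CPM (-0.71 ± 0.06). SORL1 fell by 0.64 on the log2 scale. Removal of the span trend left LRP1 at -0.22 (limma adjusted p = 0.0432), SORL1 at -0.32 (limma adjusted p = 0.0194) and MRC2 at -0.57 (limma adjusted p = 0.000121). VLDLR had 149, 103 and 143 counts in mod and 12, 11 and 17 in Nvs, a log2 fold change of -2.36 ± 0.38 at a low level.

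The partners of the urokinase receptor on the cell surface mostly fell while the receptor rose. Of 7 tested, 6 fell, with a median of -0.56. The integrin subunits ITGAV, ITGB1 and ITGB5 fell by 0.79, 0.69 and 0.56 on the log2 scale, ITGA5 by 0.40 and ITGA3 by 0.14 (edgeR adjusted p = 0.0386, but 0.121 without mod replicate 3, 0.0995 without Nvs replicate 1 and above 0.05 without mod replicate 1, Nvs replicate 2 or Nvs replicate 3). EGFR, the epidermal growth factor receptor, through which the urokinase receptor can signal, fell from 628 ± 25.5 to 408 ± 31.3 CPM (-0.62 ± 0.06 SE, edgeR adjusted p = 2.79e-06). CAV1, caveolin-1, was not called, at 1101 ± 28.2 and 1105 ± 9.55 CPM. Most of these are long genes. The median of genes of similar span was -0.35 for EGFR, -0.22 for ITGAV, -0.12 for ITGB1 and -0.27 for ITGB5. With the trend on span removed, these 4 were at -0.29, -0.59, -0.58 and -0.29 and still called (limma adjusted p = 0.00225, 0.000105, 9.83e-05 and 0.00622), so the values of EGFR and ITGB5 moved most. ITGA5 also kept its call, at -0.45 (limma adjusted p = 0.000405). ITGA3 lost its call there, at -0.11 (limma adjusted p = 0.0875), and also with the replicate number as a block (edgeR adjusted p = 0.109).

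Among the other proteins with the three-finger fold of the urokinase receptor, 4 of 8 tested rose and 1 fell. LY6K, a GPI-anchored surface protein, rose from 19.2 ± 0.891 to 40.7 ± 2.90 CPM (1.09 ± 0.09 SE, edgeR adjusted p = 3.02e-07), and by library total it was still higher at 0.33. LYPD3, a structural homologue of the urokinase receptor found in differentiating epidermis, rose from 63.9 ± 4.04 to 94.0 ± 5.32 CPM (0.56 ± 0.07), which was -0.20 by library total and 0.31 with the span trend removed. LYPD5 rose from 3.51 ± 0.472 to 6.89 ± 0.587 CPM, but by library total it was not called, at 0.21 (edgeR adjusted p = 0.326). CD59, the complement inhibitor, fell by 0.26 on the log2 scale. LY6E, the remaining call, had 464, 522 and 379 counts in mod and 8137, 208 and 1339 in Nvs. Its groups overlap, and its log2 fold change of 3.74 became 1.71 without Nvs replicate 1. With the span trend removed LY6E was not called (limma adjusted p = 0.119). The same held for limma on log2(FPKM + 1) with the trend kept (1.61, limma adjusted p = 0.182), where edgeR by library total still called it, at 2.98.

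Of 8 plasmin substrates tested, 1 rose and 3 fell. FN1, fibronectin, fell from 45.6 ± 1.31 to 32.7 ± 2.76 CPM (-0.48, and -0.32 with the span trend removed, limma adjusted p = 0.0114). LAMA3, a chain of laminin-332, fell from 308 ± 12.2 to 220 ± 14.5 CPM (-0.49, but -0.11 and not called after removal of the gene length trend, limma adjusted p = 0.123). MMP1, a collagenase whose proenzyme plasmin can cleave, fell by 0.41 on the log2 scale (-0.63 with the span trend removed). LAMB3, another chain of laminin-332, rose from 1664 ± 78.6 to 2366 ± 53.0 CPM (0.51 ± 0.05 SE, -0.25 by library total). F2RL1, the protease-activated receptor 2, was not called, at 27.6 ± 2.57 and 27.0 ± 0.757 CPM.

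Of the 12 genes for transcription or mRNA stability factors that act on PLAU or PLAUR, 8 rose and 3 fell. Those that fell were SP1, ELAVL1 and HNRNPC, at -0.33, -0.24 and -0.19. Genes of similar span had medians of -0.07, -0.09 and -0.13. Whether these 3 calls hold with the span trend removed is not given here. ETS1 and ETS2 are among those that rose, by 0.29 and 0.31, and by library total they were at -0.47 and -0.45. The AP-1 subunit genes rose most. FOSL1 went from 47.6 ± 3.62 to 210 ± 11.2 CPM (2.14 ± 0.07 SE, edgeR adjusted p = 9.01e-11), JUND rose by 1.98 and JUN by 1.68. By library total the 3 were still higher, at 1.38, 1.22 and 0.93. With the span trend removed they were at 1.91, 1.69 and 1.42. FOS rose less, by 0.47, stood at -0.29 by library total and was not called after removal of the gene length trend (0.20, limma adjusted p = 0.171). RELA, an NF-kB subunit, rose by 0.65 but was at -0.11 by library total. ZFP36, which destabilises mRNAs with AU-rich elements, rose from 26.9 ± 1.76 to 64.8 ± 0.784 CPM (1.27 ± 0.07). By library total it was at 0.51, and with the span trend removed at 0.99.

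**Figure D4:**
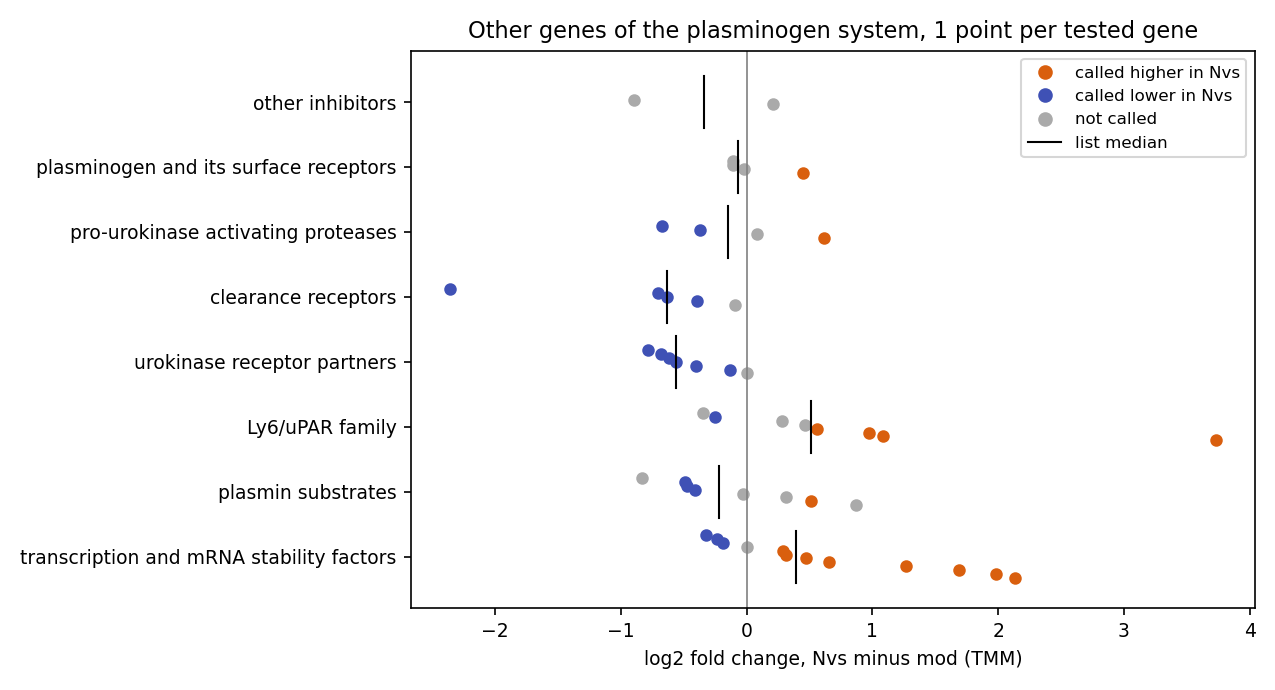
Log2 fold change (TMM, Nvs minus mod) of the 50 tested genes on the role lists, 1 point per gene, coloured by the edgeR call at an adjusted p under 0.05, with a bar at the list median. Clearance receptors and receptor partners lie at or left of 0 with medians of -0.64 and -0.56 except for CAV1 at 0.01, and the 3 AP-1 genes FOSL1, JUND and JUN lie at the right of their list.

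The genes whose profile over the 6 libraries came closest to each member were found among 9109 other tested protein-coding genes with a mean of at least 5 CPM, by the root mean square difference of log2 CPM after centring. For PLAUR they were RHOB, NSRP1 and AVPI1, at 0.0631 to 0.0732. For PLAU they were PPIE, MRPL55 and BAZ1B, at 0.0222 to 0.0241, and for SERPINE2 they were CERK, SPCS3 and ADAM10, at 0.0335 to 0.0419. PLAT had no equally close neighbour: ZNF37A, PPCDC and PTPRH were at 0.0834 to 0.0928. Profiles over 2 groups are set mainly by the group difference, and many genes share a difference of a given size.

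The genes beside the members on the chromosome are given as counts with no test, against 22.8% higher and 20.5% lower over all tested genes, and they are too few to set any member apart. Within 500 kb of PLAUR, 28 other protein-coding genes were tested, of which 6 were called higher and 2 lower, and LYPD3 and LYPD5 are among them. Within the same distance of PLAU, 1 of 16 was higher and 5 were lower. Around SERPINE2, 3 of 4 tested neighbours were lower, and around PLAT 2 of 8 were higher and 2 lower. This window was chosen after the values were seen.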

How the data were processed

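RNA was poly(A)-selected and made into dUTP strand-specific libraries read as paired ends, per the labels' protocols. The authors deposited whole-number counts per gene symbol and, in a second table, FPKM values of the same symbols. Per the submitters' processing notes the build is hg38; aligner, counter, annotation and strand setting were not given in the sources used here. Count over FPKM gave 1 length per gene in all libraries within 1% for all but 26 of 12579 genes with at least 200 counts. Counts were fitted in R 4.3.3 with edgeR 4.0.16 (filterByExpr with minimum count 10 and minimum total 15, TMM, quasi-likelihood F test with group as sole term); genes with a Benjamini-Hochberg adjusted p under 0.05 were called, and the SE is the log2 fold change over the square root of F. Alternatives used limma 3.58.1 and DESeq2 1.42.0, and scripts were tested on simulated data. Genomic spans are from RefSeq (21780 of 21961 symbols matched). The replicate numbers did not pair the libraries. Members, lists and tests were chosen with earlier results of these data known. Some genes of the lists are not reported here. The text names the members, genes of the role lists and the 3 closest profiles of each member. Of the list genes it names those with a described role and the called ones.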

Additional observations from a re-analysis of the deposited data

How the results depend on the processing

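PLAUR and SERPINE2 kept their direction and call under every alternative run. Scaling decided PLAU and PLAT: by library total they were at -0.31 and -0.21, in limma on log2(FPKM + 1) at -0.30 and -0.14 and on log2(FPKM + 0.1) at -0.31 and -0.23. These 3 settings, which all scale by library total, called 10527, 10719 and 10717 genes in place of 6328, and on the role lists 6, 5 and 5 higher and 38, 39 and 39 lower in place of 15 and 19. In the same order, SERPINB2 was at -0.55, -0.49 and -0.54, S100A10 at -0.31, -0.31 and -0.31, F12 at -0.14, -0.11 and -0.14, CAV1 at -0.75, -0.75 and -0.75, LYPD3 at -0.20, -0.19 and -0.20, LAMB3 at -0.25, -0.25 and -0.25, FOS at -0.29, -0.24 and -0.29, and RELA at -0.11, -0.10 and -0.10. Removal of the gene length trend left PLAT at 0.53 with a limma adjusted p of 0.0583. That setting also used limma in place of edgeR. On the role lists it called 13 higher and 17 lower, and 6 called genes kept their sign but lost their call.

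Leaving out each library in turn gave 0.37 to 0.73 for PLAT, 0.41 to 0.47 for PLAU, 1.08 to 1.22 for PLAUR and -0.72 to -0.58 for SERPINE2, and 32 to 35 calls on the role lists. Same-numbered libraries did not deviate together (r = -0.02, -0.01 and -0.02 across 14617 genes). With the replicate number as a block, edgeR called 5949 genes and 33 on the lists, and gave 0.45 for PLAU, 0.52 for PLAT, 1.16 for PLAUR and -0.64 for SERPINE2. DESeq2 size factors, the DESeq2 test, other count filters and removal of mitochondrial genes changed no call of a member. PLAT, at 314 to 624 counts per library, is the least precise.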
